A study of Mus musculus with 58 samples.

Results

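Dbp, Tef, Hlf and Nfil3 encode the transcription factors that act through the D-box, and their binding by BMAL1 and its partner CLOCK was described from chromatin immunoprecipitation sequencing (ChIP-seq) peak lists of mouse NIH3T3 fibroblasts and mouse liver. The study asked how BMAL1 target sites depend on the cellular context. The peaks of these genes were chosen from the gene column of the authors' BMAL1 lists, which gave 12 of 463 BMAL1 peaks in NIH3T3 cells and 14 of 1254 in liver, and CLOCK peaks were added where their centres lay within 5 kb of any of these, which gave 6 of 1016 CLOCK peaks in NIH3T3 cells and 6 of 439 in liver. The BMAL1 peaks covered 17 distinct intervals, of which 9 stood in both lists, 3 in the NIH3T3 list alone and 5 in the liver list alone. NIH3T3 is an embryonic fibroblast line. Its cultures had been given 100 nM dexamethasone, a glucocorticoid that sets the clocks of the cells to a common phase, for 30 min, and 7 BMAL1 libraries (12 to 38 h later) and 6 CLOCK libraries (18 to 38 h later) belonged to the lists, each library from several pooled immunoprecipitations. The file of NIH3T3 BMAL1 peaks was named for 20 h alone. The liver CLOCK list came from 1 sample, titled pooled, of C57/BL6 mice aged 12 to 14 weeks that were kept in cycles of 12 h light and 12 h dark with free access to food, and no time of day was given. The liver BMAL1 list was the authors' renewed processing of earlier libraries from zeitgeber time 6, with strain and age not given in the sources used here. Each list held positions alone, with no height, score or value per library, so there was no replicate error, depth was unknown, and the identity of cells and tissue could not be checked against marker genes. Shares are given with exact 95% Clopper-Pearson intervals, which cover counting error over peaks and no variation between cultures or animals.

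DBP, TEF and HLF form the PAR bZIP family, named for a proline and acidic amino acid rich domain beside their basic leucine zipper. They activate genes that carry D-box elements, while NFIL3 (E4BP4) binds the same elements as a repressor. BMAL1 and CLOCK bind E-boxes as a dimer, and Dbp is a classical target of that dimer, with rhythmic transcription in liver, whereas Nfil3 is known as a target of REV-ERB and ROR receptors, which bind RORE elements.

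The promoter sequences of the 4 genes show where such elements lie. Windows of 250 bases before the annotated start were taken from RefSeq, build GRCm38.p6, which held 1 window each for Dbp, Hlf and Nfil3 and 2 for Tef. The peaks are in build mm9, so they could not be placed on these bases. All sequences read 5′ to 3′ on the strand of the gene and end at the base before the start. Capitals mark the E-box CACGTG in Tef and the RORE core TAGGTCA in Nfil3, where it lies on the opposite strand and reads as its reverse complement. The Tef windows are shown because each holds an E-box, and that of Nfil3 because no peak lay near its start. Those of Dbp and Hlf are shown because BMAL1 peaks lay at -27 and -31 bp from a start the authors annotated, while the RefSeq windows of these genes lack that element. Whether those starts of Dbp and Hlf are the starts of the RefSeq windows was not tested. For Hlf and Nfil3 the last 150 bases are printed.
Tef, second start, chr15:81811164-81811413, plus strand: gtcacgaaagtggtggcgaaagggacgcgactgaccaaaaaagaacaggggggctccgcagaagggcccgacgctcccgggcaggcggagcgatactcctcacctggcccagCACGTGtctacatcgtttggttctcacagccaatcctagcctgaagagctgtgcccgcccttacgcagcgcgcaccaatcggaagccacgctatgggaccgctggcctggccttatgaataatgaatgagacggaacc
Tef, first start, chr15:81802423-81802672, plus strand: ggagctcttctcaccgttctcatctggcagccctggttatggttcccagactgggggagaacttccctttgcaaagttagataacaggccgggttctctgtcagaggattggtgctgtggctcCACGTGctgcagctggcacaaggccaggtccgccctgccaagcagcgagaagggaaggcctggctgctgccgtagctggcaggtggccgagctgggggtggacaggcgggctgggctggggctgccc
Dbp, chr7:45704997-45705246, plus strand: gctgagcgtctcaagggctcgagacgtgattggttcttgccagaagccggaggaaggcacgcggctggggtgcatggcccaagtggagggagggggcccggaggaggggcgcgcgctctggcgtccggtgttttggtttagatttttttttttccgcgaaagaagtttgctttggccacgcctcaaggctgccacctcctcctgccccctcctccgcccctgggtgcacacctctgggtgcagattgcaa
Hlf, chr11:90390918-90391067, minus strand: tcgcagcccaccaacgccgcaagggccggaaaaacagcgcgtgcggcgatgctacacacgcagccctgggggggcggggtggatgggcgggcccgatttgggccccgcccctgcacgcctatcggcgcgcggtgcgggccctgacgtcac
Nfil3, chr13:52981040-52981189, minus strand: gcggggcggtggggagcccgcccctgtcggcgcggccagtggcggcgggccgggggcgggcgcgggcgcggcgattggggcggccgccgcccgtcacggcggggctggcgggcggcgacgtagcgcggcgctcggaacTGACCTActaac

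The E-box lay at bases -138 to -133 before the second Tef start and at -127 to -122 before the first, which is 8741 bases upstream of the second. Of the 5 windows of these genes 2 held CACGTG, both of Tef, against 6.02% of all 32851 RefSeq promoter windows. Among windows of genes with a BMAL1 peak within 200 bp of the authors' start site the share was 44.4% in NIH3T3 cells (79 of 178, 37.0 to 52.0) and 34.2% in liver (100 of 292, 28.8 to 40.0). The palindrome CACGTG reads the same on both strands, and the other motifs were searched on both strands. The E′-box CACGTT was in none of the 5 windows and in 3.85% of all windows. The D-boxes TTATGTAA and TTACGTAA were in none of the 5 and in 0.819% and 0.113% of all windows. TAGGTCA was in the Nfil3 window alone among the 5, at bases -12 to -6, and in 2.23% of all windows. A match is a description of letters and does not show binding.

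The NIH3T3 list gave Dbp 6 BMAL1 peaks and the liver list 4. Tef carried 4 in each. Hlf had 2 in NIH3T3 cells, against 4 in the liver list, and Nfil3 had none in NIH3T3 cells, against 2 in the liver list. CLOCK peaks within 5 kb numbered 3 in each context at Dbp, 2 in each at Tef, 1 in each at Hlf and none at Nfil3. Dbp, Tef and Hlf therefore had BMAL1 and CLOCK peaks in both contexts, and Nfil3 had BMAL1 peaks in the liver list alone. For Nfil3 this rests on 2 peaks, and over the whole liver list 21.8% of BMAL1 peaks had an NIH3T3 partner within 500 bp and 4.31% had liver CLOCK, so peaks with neither are the usual kind there.

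**Figure D1:**
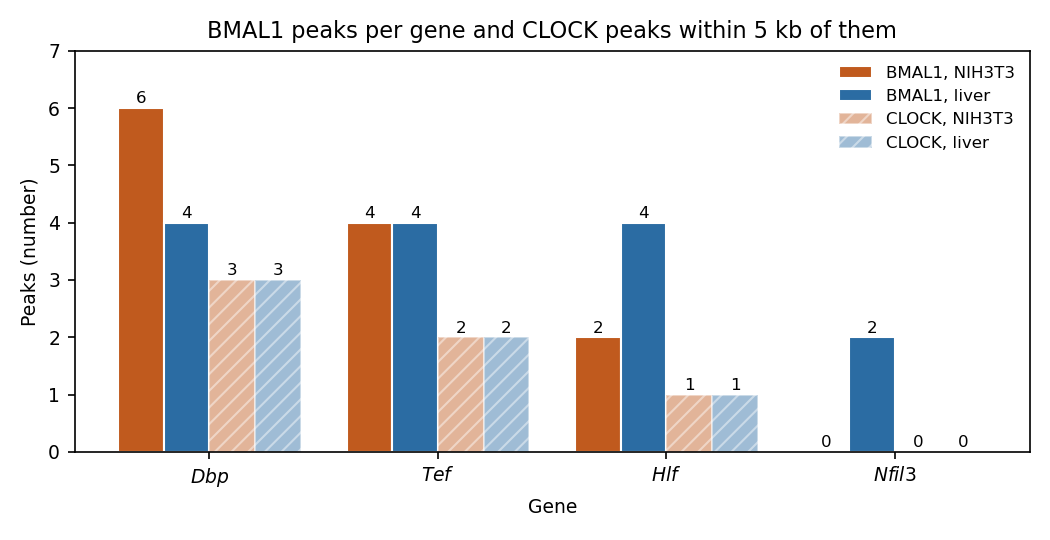
Number of peaks (vertical axis) for each gene (horizontal axis), with solid bars for BMAL1 peaks annotated to the gene and hatched bars for CLOCK peaks within 5 kb of them, in NIH3T3 cells (orange) and liver (blue). For Dbp the BMAL1 bars reach 6 in NIH3T3 cells and 4 in liver, while Nfil3 has a bar of 2 for liver BMAL1 and no other.

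At Dbp the BMAL1 peaks formed 3 groups over about 3 kb. The authors' distances are signed, and read with negative values as upstream they placed at least 2 peaks at the same start site for 127 of 169 gene entries with several peaks, against 0 of 169 in the opposite reading, so negative values are upstream of a start here. The first group lay at a start site at 52960458 on chromosome 7. There the NIH3T3 list had peaks at -265 bp (chr7:52960169-52960218), -119 bp (chr7:52960316-52960364) and -27 bp (chr7:52960407-52960456), and the liver list had the -119 bp peak alone. The centres of the NIH3T3 peaks were 146.5 and 91.5 bp apart, so all 3 counted as within 500 bp of the liver peak although 2 of them did not overlap it. The second group was a narrow peak, 5 bp wide and the same in both lists, at chr7:52961435-52961439, 447 bp downstream of the start the authors annotated it to. The last group was a pair of peaks with centres 74 bp apart, again the same in both lists, at -187 bp (chr7:52963048-52963097) and -113 bp (chr7:52963122-52963171) from another annotated start site 2801 bp downstream of the first. All 10 Dbp entries thus lay within 1 kb of some annotated start of the gene.

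CLOCK stood at the first and last groups of Dbp in both contexts and not at the second. In NIH3T3 cells the CLOCK peaks lay at chr7:52960154-52960203, with its centre 15 bp from the -265 bp BMAL1 peak, at chr7:52960412-52960461, 5 bp from the -27 bp peak, and at chr7:52963188-52963237, 66 bp from the -113 bp peak. In liver they lay at chr7:52960249-52960498, 33.5 bp from the -119 bp peak, and at chr7:52962939-52963188, 9 bp from the -187 bp peak. A further liver CLOCK peak, at chr7:52963582-52963831, was 560 bp from the nearest BMAL1 peak. The narrow BMAL1 peak of the second group was 1000.5 bp from the nearest CLOCK peak in NIH3T3 cells and 1063.5 bp in liver. The NIH3T3 CLOCK list thus placed separate peaks at both outer NIH3T3 BMAL1 peaks of the first group, where the liver list, with wider intervals, placed a single peak between them.

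At Tef the BMAL1 peaks formed a single locus. The 4 peaks were the same intervals in both lists and spanned 417 bp on chromosome 15. They stood as 2 pairs, each upstream of or at its own annotated start site, with the starts 368 bp apart. The first pair lay at -81 bp (chr15:81641371-81641420) and 3 bp (chr15:81641455-81641504), and the second at -149 bp (chr15:81641671-81641720) and -82 bp (chr15:81641738-81641787). Centres within the pairs were 84 and 67 bp apart, and the pairs were 216 bp apart. NIH3T3 CLOCK peaks lay at chr15:81641469-81641518 and chr15:81641687-81641736, with centres 14 bp from the 3 bp peak and 16 bp from the -149 bp peak. Liver CLOCK peaks lay at chr15:81641369-81641618 and chr15:81641600-81641849, with centres 14 and 29 bp from the same 2 BMAL1 peaks. Each pair of BMAL1 peaks therefore had 1 CLOCK peak in each context, and the CLOCK centres of the contexts were 0 bp apart at the first pair and 13 bp apart at the second.

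The -149 bp peak of Tef covered bases -173 to -124 from its start site in mm9, and the E-box shown above for the second RefSeq start lay at -138 to -133 from that start in GRCm38.p6. Whether the 2 start sites are the same was not tested. The first pair of peaks lay at -449 and -365 bp from the mm9 start of the second pair. No BMAL1 peak of another gene lay within 5 kb of any peak of the 4 genes. Within 20 kb there was 1, a liver-only peak annotated to Gm17597, at chr15:81632981-81633069, 8370.5 bp from the closest Tef peak and without a liver CLOCK peak within 500 bp.

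**Figure D2:**
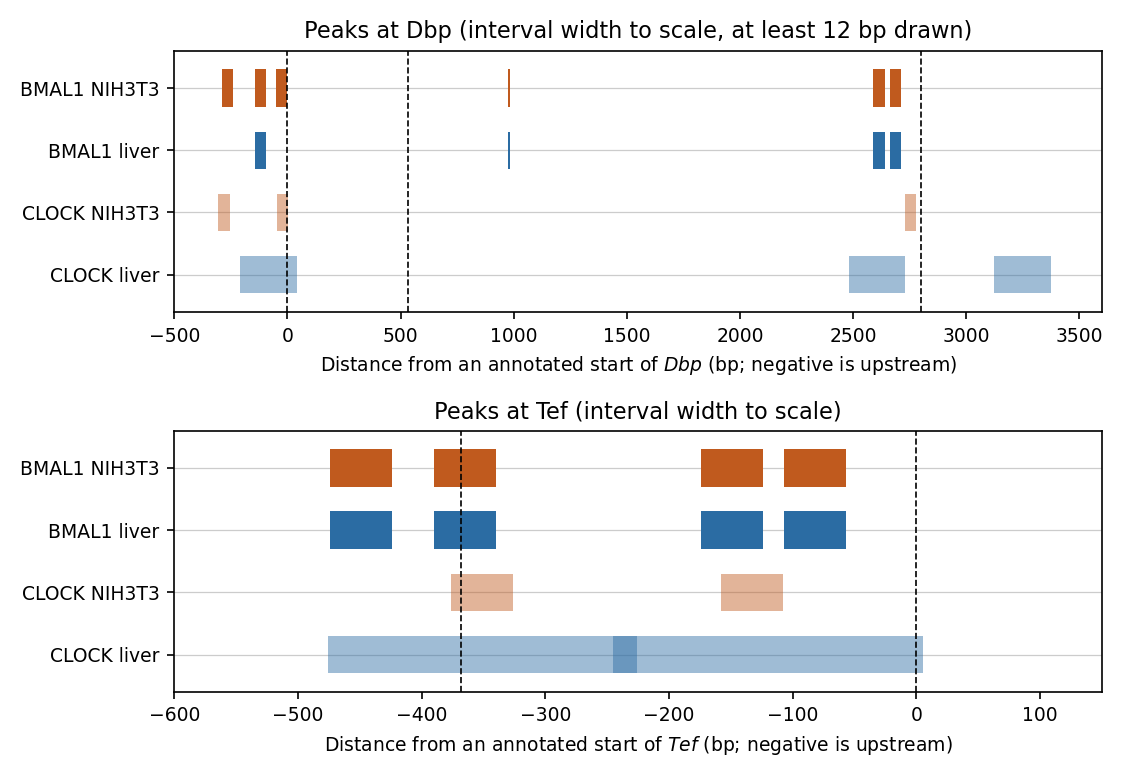
Positions of BMAL1 and CLOCK peaks of NIH3T3 cells and liver (rows) along Dbp (upper panel, from the most upstream annotated start) and Tef (lower panel, from the most downstream annotated start), in bp with negative values upstream, with dashed lines at the start sites that the authors' distances give. Dbp shows 3 groups of BMAL1 peaks with CLOCK at the outer ones, and Tef shows 2 pairs of BMAL1 peaks with a CLOCK peak at each pair in each context.

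Hlf, whose product is known in human leukaemia as the fusion partner of E2A as well as for its part in clock output, differed from Dbp and Tef in layout. Its BMAL1 peaks were spread over 5 separate sites, with neighbouring centres 2933 to 27224 bp apart. The site in common was at -27255 bp (chr11:90279441-90279533), and it was also the site at which Hlf had CLOCK peaks, at chr11:90279460-90279509 in NIH3T3 cells, with its centre 2.5 bp from that of BMAL1, and at chr11:90279392-90279641 in liver, 29.5 bp away. NIH3T3 cells alone had a peak at the start site itself, at -31 bp (chr11:90252228-90252298). Liver alone had a peak at -598 bp from a second annotated start (chr11:90243823-90243872), which lies 8982.5 bp inside the gene from the first, and peaks 9142 bp (chr11:90234083-90234132) and 12075 bp (chr11:90231150-90231199) downstream of that second start. The NIH3T3-only peak was 27221.5 bp from the nearest NIH3T3 CLOCK peak, and the liver-only peaks were 35669 to 48342 bp from the nearest liver CLOCK peak, which in each case was the one at the common site.

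Nfil3 had no BMAL1 peak in the NIH3T3 list. In liver it had peaks 6205 bp downstream of its start (chr13:53070213-53070262) and far upstream at -87011 bp (chr13:53163429-53163478), 93216 bp apart. Neither had a partner in NIH3T3 cells, where the nearest BMAL1 peak was 1128278 bp away from the first. The nearest liver CLOCK peak was 1702885 bp from the first and 1796101 bp from the second, and the nearest NIH3T3 CLOCK peaks were 1061714 and 968498 bp away. The gene assignment of the far upstream peak rests on the authors' annotation alone.

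**Figure D3:**
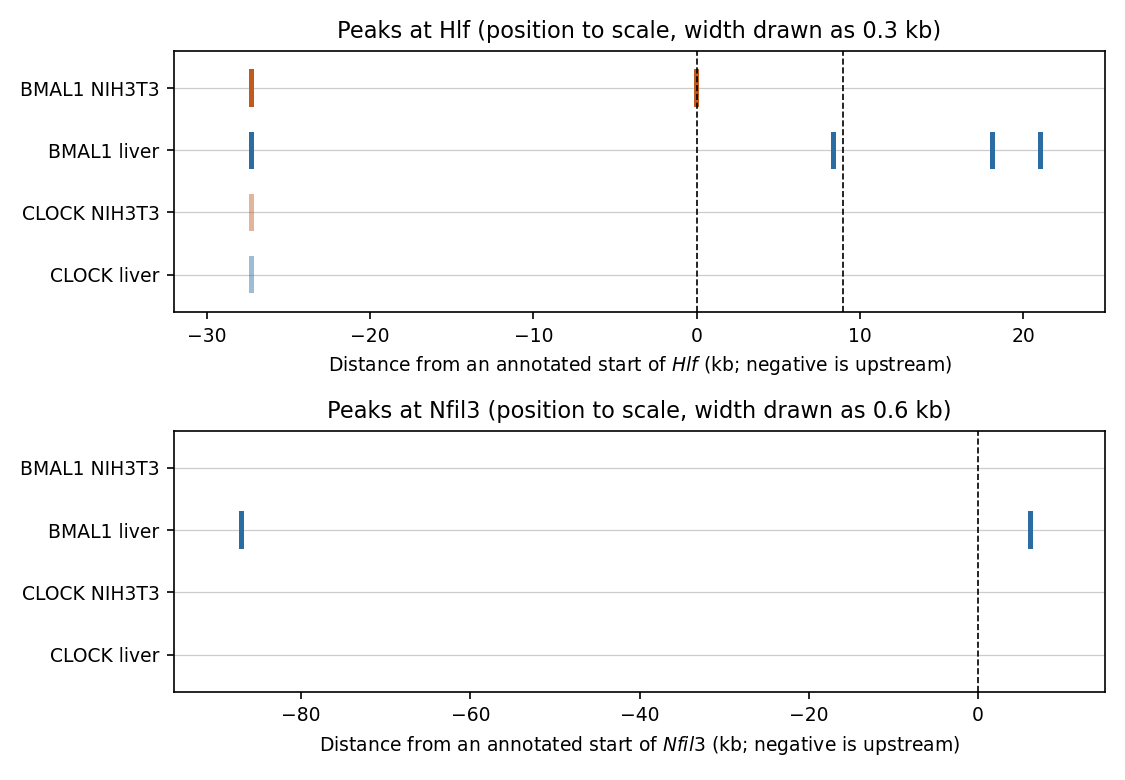
Positions of BMAL1 and CLOCK peaks of NIH3T3 cells and liver (rows) along Hlf (upper panel, from its upstream annotated start) and Nfil3 (lower panel), in kb with negative values upstream, with dashed lines at the annotated start sites. Hlf shows a site common to all 4 lists at -27255 bp and sites of a single context elsewhere, and Nfil3 shows liver BMAL1 peaks alone.

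CLOCK accompanied all BMAL1 peaks of Tef, most of Dbp, a single Hlf site and none of Nfil3 when counted within 500 bp. A CLOCK peak centre of the same context lay within 500 bp of 10 of the 12 NIH3T3 BMAL1 peaks (83.3%, 51.6 to 97.9), where 22.0% of all NIH3T3 BMAL1 peaks had one, and of 8 of the 14 liver BMAL1 peaks (57.1%, 28.9 to 82.3), where 4.31% of all liver BMAL1 peaks had one. The peaks with CLOCK were 5 of Dbp, 4 of Tef and 1 of Hlf in NIH3T3 cells and 3 of Dbp, 4 of Tef and 1 of Hlf in liver. The same counts were found with the CLOCK list of the other context, with liver CLOCK at 10 of the 12 NIH3T3 peaks, against 10.2% of all, and NIH3T3 CLOCK at 8 of the 14 liver peaks, against 6.54% of all. Without the peaks of Tef the counts were 6 of 8 in NIH3T3 cells and 4 of 10 in liver, and with peaks joined at 1 kb CLOCK stood at 4 of 6 NIH3T3 and 4 of 10 liver loci. The whole-list shares given here count peaks, and none is given for joined loci, so the locus counts have no background beside them. The peaks of the 4 genes stand in groups and share CLOCK peaks, so they are not independent. No test was made because the genes were chosen with earlier results of these data known. Where CLOCK was within 500 bp, the median distance between centres was 33.5 bp (n = 10) at the 4 genes and 40.25 bp (n = 102) over the whole list in NIH3T3 cells, and 31.5 bp (n = 8) and 35.75 bp (n = 54) in liver. The spacing of CLOCK and BMAL1 centres at these genes was thus near the median of the lists.

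**Figure D4:**
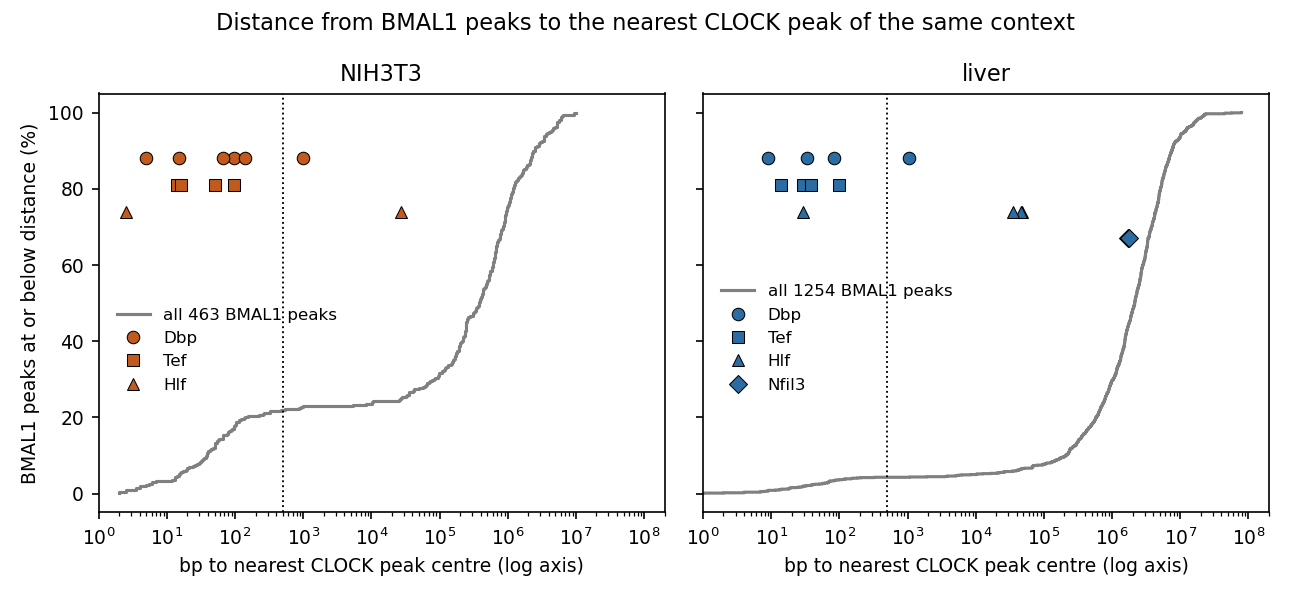
Distance from each BMAL1 peak to the nearest CLOCK peak centre of the same context (horizontal log axis, bp), in NIH3T3 cells (left) and liver (right). The grey line is the cumulative percentage of all BMAL1 peaks (vertical axis), the symbols are the peaks of Dbp, Tef, Hlf and Nfil3, set at arbitrary heights, and the dotted line marks 500 bp. In NIH3T3 cells 10 of 12 peaks and in liver 8 of 14 peaks of these genes lie left of the dotted line.

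By overlap of intervals (1 bp or more), CLOCK stood at 5 of the 12 NIH3T3 peaks and 8 of the 14 liver peaks, against 58 of 463 and 49 of 1254 in the whole lists. The NIH3T3 CLOCK intervals are 50 bp wide and the liver ones 250 bp, and what that width adds to these counts was not tested. At Dbp the NIH3T3 count was 2 of 6 and at Tef 2 of 4 by this measure. CLOCK peaks of these genes had partners in the other context. Of the 6 NIH3T3 CLOCK peaks 6 had a liver CLOCK peak centre within 500 bp (54.1 to 100%), against 2.66% of all NIH3T3 CLOCK peaks, and of the 6 liver CLOCK peaks 6 had an NIH3T3 one, against 6.38% of all liver CLOCK peaks. The CLOCK peaks of these genes were chosen for lying near BMAL1 peaks, and among CLOCK peaks within 5 kb of any BMAL1 peak of either list the shares were 28.1% of 96 in NIH3T3 cells and 48.3% of 58 in liver. The distances between these centres were 0 to 195 bp for NIH3T3 peaks, and up to 494 bp for the outlying liver CLOCK peak of Dbp. At Dbp both NIH3T3 CLOCK peaks of the first group matched the same liver peak. The outlying liver CLOCK peak and the liver one at the last group matched the same NIH3T3 peak. The matches are therefore not independent, which the exact interval does not allow for.

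Counted within 500 bp, BMAL1 sites of Dbp and Tef were common to the contexts, and those of Hlf and Nfil3 mostly were not. Of the 6 NIH3T3 peaks of Dbp, 4 had the same start and end in the liver list, and the others did not overlap a liver peak. All 6 NIH3T3 and all 4 liver peaks of Dbp, and all 4 in each list of Tef, had a BMAL1 centre of the other context within 500 bp, whereas this held for 1 of 2 NIH3T3 and 1 of 4 liver peaks of Hlf and for none of the 2 liver peaks of Nfil3. Over the 4 genes the counts were 11 of 12 in NIH3T3 cells (91.7%, 61.5 to 99.8), against 59.2% of the whole list, and 9 of 14 in liver (64.3%, 35.1 to 87.2), against 21.8%. Identical start and end in both lists were found for 9 of 12 NIH3T3 and 9 of 14 liver peaks, against 56.8% and 21.0% of the whole lists, with intervals of 42.8 to 94.5% for NIH3T3 cells, which includes the whole-list share, and 35.1 to 87.2% for liver. These 9 entries all stood among the first 263 entries, which are the same in both BMAL1 lists. The way the lists were put together was not given in the sources used here, so sharing at identical entries cannot be told apart from joint calling. The Dbp and Tef peaks also stand in groups and are not independent, which the exact intervals for sharing do not allow for.

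Position relative to start sites split the genes in the same way, but not the single peaks of Hlf. The Hlf peaks nearest a start, at -31 bp in NIH3T3 cells and -598 bp in liver, had no partner in the other context. The Hlf peak common to both lists lay at -27255 bp. Within 1 kb of the authors' start site lay all Dbp and Tef peaks in both lists, 1 of 2 NIH3T3 and 1 of 4 liver peaks of Hlf, and none of the 2 liver peaks of Nfil3. Together these were 11 of 12 in NIH3T3 cells (91.7%, 61.5 to 99.8), against 71.7% of the whole list. In liver they were 9 of 14 (64.3%, 35.1 to 87.2), against 44.7%. Both intervals include the share of the whole list, but the Dbp and Tef peaks stand in groups, which the intervals do not allow for. The median absolute distance was 116 bp at the 4 genes and 219 bp over the whole list in NIH3T3 cells, and 317 bp and 2182 bp in liver. By gene it was 153 bp for Dbp and 81.5 bp for Tef in both lists, 13643 bp in NIH3T3 cells and 10608.5 bp in liver for Hlf, and 46608 bp for Nfil3 in liver. Another BMAL1 peak of the same list lay within 500 bp of 9 of 12 NIH3T3 peaks (5 of Dbp and 4 of Tef, 42.8 to 94.5%), against 37.6% of the whole list, and of 6 of 14 liver peaks (2 of Dbp and 4 of Tef, 17.7 to 71.1%), against 19.0%, which lies inside the interval for liver. No Hlf or Nfil3 peak had such a neighbour. Peaks that are neighbours count each other, so these peaks are not independent, which the exact intervals do not allow for. With peaks joined at 1 kb, Dbp had 3 loci in each context, Tef 1 in each, Hlf 2 in NIH3T3 cells and 4 in liver, and Nfil3 2 in liver.

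The number of BMAL1 peaks per gene placed Dbp and Tef near the upper end of both lists. This number counts intervals, and with peaks joined at 1 kb Tef had 1 locus and Dbp 3 in each list. Genes were not ranked by loci. In NIH3T3 cells 4 or more peaks were annotated to 1.45% of the 345 genes, namely Nr1d1 with 7, Dbp and Srm with 6, and Tef and Slc20a1 with 4. In liver 4 or more were annotated to 0.711% of the 985 genes, namely Srm with 6 and Dbp, Tef, Hlf, Nr1d1, Irf2bp2 and Mtss1 with 4. Nr1d1 encodes REV-ERBα and Srm encodes spermidine synthase. Hlf, with 2 peaks in NIH3T3 cells, was among 64 genes with that number, and Nfil3, with 2 in liver, among 126.

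**Figure D5:**
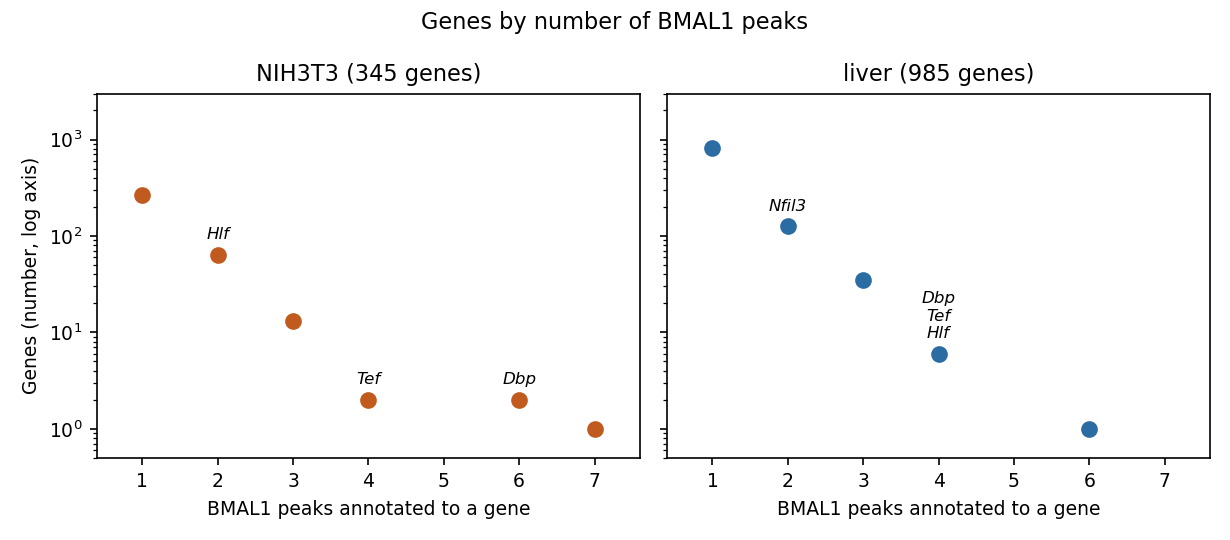
Number of genes (vertical log axis) with a given number of annotated BMAL1 peaks (horizontal axis), in NIH3T3 cells (left, 345 genes) and liver (right, 985 genes), with the points that include Dbp, Tef, Hlf and Nfil3 named. Dbp with 6 peaks in NIH3T3 cells and Dbp, Tef and Hlf with 4 peaks in liver lie among few genes.

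Genes were compared by 4 counts, namely BMAL1 peaks in each list and BMAL1 peaks with CLOCK within 500 bp in each context, and likeness was the sum of absolute differences to genes other than these 4. Nearest to Dbp was Nr1d1, with a sum of 3 (7 and 4 BMAL1 peaks, of which 6 and 4 had CLOCK, in NIH3T3 cells and liver), followed by Cry1, Gm129 and Per2 with 6. Nearest to Tef outside the 4 genes were Cry1, Gm129 and Per2 with a sum of 4 each, all with 3 BMAL1 peaks in both lists and CLOCK at all 3. For Hlf 9 genes shared the smallest sum of 3, among them Cry2 and Bhlhe41. For Nfil3 80 genes had the very same 4 counts. Among the 193 genes in both BMAL1 lists, 6.22% had CLOCK within 500 bp of a BMAL1 peak in both contexts, and Dbp, Tef and Hlf were 3 of these 12 genes. The others were the clock genes Per1, Per2, Cry1, Cry2, Nr1d1, Nr1d2 and Gm129, and Mthfd1l and 2410080I02Rik.

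Other genes of the D-box circuit were described from lists. Of 10 clock genes counted as D-box targets, 7 were annotated to a BMAL1 peak in NIH3T3 cells and 8 in liver, against 1.40% and 3.79% of RefSeq protein-coding genes. Among them were Per1, Per2, Per3, Cry1, Nr1d1, Nr1d2 and Gm129 in both lists. The listed genes with a peak had 2 to 7 peaks each in NIH3T3 cells and 1 to 4 in liver, and 6 of the 7 and 7 of the 8 had CLOCK at a peak, with Per3 the exception in each context. Of all genes with a BMAL1 peak, 18.8% of the 345 in NIH3T3 cells and 3.55% of the 985 in liver had CLOCK at a peak. Of 25 core clock genes, a list that includes the 10 above, 10 had a BMAL1 peak in NIH3T3 cells and 12 in liver, and 8 in each context had CLOCK at a peak. All 10 of the NIH3T3 list also had a liver peak.

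Of 16 genes listed as PAR bZIP output in liver, among them Cyp7a1 (the rate-limiting enzyme of bile acid synthesis), Alas1 (the first enzyme of haem synthesis) and Nr1i3 (the xenobiotic receptor CAR), none had a BMAL1 peak in NIH3T3 cells and 3 had one in liver. Over all RefSeq protein-coding genes the shares were 1.40% in NIH3T3 cells and 3.79% in liver. The NIH3T3 count of 0 of 16 is near its share, and the liver count of 3 of 16 is above its share. The difference was not tested, and the list was written with earlier results of these data known. The 3 genes were Por with 3 peaks, Ppara with 3 and Upp2 with 1. None of these peaks had liver CLOCK within 500 bp, as is the case for all but 4.31% of the liver list. Por encodes the reductase that serves cytochromes P450, Ppara a receptor for fatty acids and Upp2 a uridine phosphorylase. No gene of the related C/EBP bZIP family, of which 7 were looked up, appeared in the gene column of a BMAL1 list, which at the same shares of all genes is near the background.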

How the data were processed

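ChIP-seq of BMAL1 and CLOCK was used from 4 peak lists. Per the submitters' processing notes, Bowtie, SAMtools and bedtools and the build mm9 were named without roles. The peak caller, thresholds and versions were not given in the sources used here. Peak lists as the authors deposited them hold intervals, with a gene and a signed distance in bp for BMAL1 and a gene for NIH3T3 CLOCK. The deposited gene column of the NIH3T3 CLOCK list served for a check in the closing section alone, because CLOCK peaks were taken by position. Starts are printed counting from 1. BMAL1 peaks were 5 to 100 bp wide (median 50), and CLOCK peaks were 50 bp wide in NIH3T3 cells and 250 bp in liver, so peaks were matched by distance between centres, at most 500 bp.

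The distance of the authors was turned into a start site with the gene's strand from RefSeq. Symbols matched RefSeq (GRCm38.p6) for 330 of 345 NIH3T3 and 914 of 985 liver genes, and all 4 genes had promoter windows. That build differs from mm9 and no coordinates were converted. Protein sequences were not used here. The genes, gene lists and comparisons were chosen with earlier results of these data known, so counts stand beside those of the whole list, without tests. Named were all 4 genes, genes of the lists with a peak, the 3 other genes nearest by 4 peak counts, with ties ordered by median distance to the start (only the number where over 10 tied) and genes with a BMAL1 peak within 5 kb. Slc20a1, Srm, Irf2bp2, Mtss1, Mthfd1l, 2410080I02Rik and Gm17597, and Cyp7a1, Alas1 and Nr1i3, which have no peak, and Cry1 beside Dbp, a tie, fall outside that rule and were named after their values were seen. A few genes that this rule names are not reported here. In 20 draws of data made with planted partners the count was exact in all 20. The partners were planted within 500 bp and all other peaks on a made-up chromosome. The draws thus check the counting alone and say nothing of chance matches in the lists. Libraries of RNA, RNA polymerase II and input were not used here. Alternatives were other distances, overlap, joined loci, identical intervals and other windows around peaks and starts. Leaving out the peaks of Dbp or Tef was added after seeing the data. A stricter threshold could not be tried without scores. The tools were pandas 2.3.3, NumPy 2.4.6, SciPy 1.17.1 and Matplotlib 3.10.9 under Python 3.11.15.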

Additional observations from a re-analysis of the deposited data

How the results depend on the processing

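The share of NIH3T3 BMAL1 peaks of the 4 genes with NIH3T3 CLOCK was 83.3% by centres within 500 bp and 41.7%, or 5 of 12, by overlap of intervals (1 bp or more). NIH3T3 CLOCK intervals are 50 bp wide, so that a centre distance of 500 bp counts peaks that stand side by side. Every other alternative for sharing, CLOCK and start sites gave a share inside the interval of its main value, and every count of CLOCK peaks, loci and motif windows stayed within 1.5 times. With peaks joined at 1 kb, CLOCK stood at 4 of 6 loci in NIH3T3 cells (66.7%) and 4 of 10 in liver (40.0%), and a BMAL1 peak of the other context at 5 of 6 and 5 of 10. The whole-list shares given above count peaks and are no background for these locus counts. Without the peaks of Tef, CLOCK stood at 6 of 8 peaks in NIH3T3 cells and 4 of 10 in liver, and without those of Dbp at 5 of 6 and 5 of 10. With 12 and 14 peaks the intervals are wide. Peak height and depth per library are unknown. No paired analysis was possible because the lists give no value per sample.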

Other observations

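The gene column of the NIH3T3 CLOCK list named Dbp for 3 peaks and Tef for 3. The 3 Dbp peaks and 2 of the Tef peaks lay within 66 bp of a BMAL1 peak of the same gene. The other Tef entry lay on another chromosome, at chr3:42164425-42164474, while the CLOCK peak at the -27255 bp site of Hlf had no gene in that column.

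The NIH3T3 CLOCK list is not sorted by position, and what its order stands for was not given in the sources used here. All 6 CLOCK peaks of these genes stood in rows 3 and 4 (Tef), 10, 11 and 33 (Dbp) and 42 (Hlf) of 1016. Over the list, a NIH3T3 BMAL1 peak centre lay within 500 bp of 38 of the first 50 entries (76.0%), 15 of the next 50 (30.0%) and 8 of the last 516 (1.55%).

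The RefSeq starts of Tef are 8741 bases apart in GRCm38.p6, and in mm9 the liver-only peak annotated to Gm17597 lay 8370.5 bp from the nearest Tef peak, 19 bp from the start site of Gm17597. These distances are unlike measures, the former between starts and the latter between peak centres. Whether the Gm17597 peak stands at the other Tef start was not tested, since no coordinates were converted.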
